A study of Mus musculus with 12 samples.

Results

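The comparison set 3 cortices of Med13l heterozygous mouse embryos (Het) against 3 cortices of wild-type embryos (WT), all at E13.5, by bulk RNA-seq. Its members were the 6 bulk libraries whose labels give those genotypes, out of 12 samples in the series, and 18844 genes with enough counts were compared. The embryos came from matings of Med13l heterozygous mice, so that WT and Het libraries share that parentage. The labels name no strain, give no agent or treatment, and call the homozygous mutants null without describing the allele. The labels give each genotype 3 brain tissues for bulk RNA-seq, and they state pooling of embryos for the single-cell samples only. The 3 homozygous mutant (KO) libraries entered the fit only to share its estimate of the spread, and the single-cell samples were not analysed here. Het 1, Het 2 and Het 3 are the libraries described as D1_Het, D4_Het and F1_Het, and WT 1, WT 2 and WT 3 those described as D5_WT, D6_WT and F3_WT. The question taken up was which genes differ in the heterozygous cortex, and how far the library Het 1 alone sets each difference.

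Med13l makes part of the kinase module of Mediator, which is the complex carrying signals from DNA-bound transcription factors to RNA polymerase II. This module, built from a Med13 and a Med12 protein with a cyclin and its kinase, docks on Mediator reversibly and alters its contact with the polymerase. In people, variants in 1 copy of MED13L cause a developmental disorder with intellectual disability, so the state with a single functional allele is of interest in its own right. The cortex at this stage is the dorsal wall of the telencephalon. It holds dividing radial glia, intermediate progenitors and the earliest projection neurons, and it borders the ganglionic eminences and, behind it, the diencephalon.

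Totals of the 6 libraries ran from 37909377 to 52992392 counts. Transcripts of the dorsal telencephalon were present in every one of them, with Emx1, a homeobox transcription factor of the developing cortex, at 53.7 to 55.3 CPM (counts scaled to library size) in WT, with Het 2 at 62.8 CPM and Het 3 at 43.4 CPM. Het 1 stood apart, with 19.8 CPM of Emx1. The first principal component of the 6 libraries held 41.5% of the variance and placed Het 1 at -88.7, against 49.7 for Het 2 and 1.60 to 20.2 for the other 4. Y-linked and Xist counts mark WT 1, Het 1 and Het 3 as female and WT 2, WT 3 and Het 2 as male. The descriptions carry a letter whose meaning is not given: WT 3 and Het 3 have the letter F and the other 4 the letter D. Results that rest on Het 1 are therefore given with and without it, and differences within each letter are given where they bear on a result.

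Med13l transcript was not lower in Het. Med13l (ENSMUSG00000018076, GRCm38 chromosome 5, 118560679 to 118765438) was measured at 146, 146 and 116 CPM in the WT libraries, in order, and at 141, 156 and 160 CPM in the Het libraries. The groups overlapped, and the lowest value was that of WT 3. The log2 fold change was 0.17 (SE 0.12), and 0.22 (SE 0.13) without Het 1. The counts cover the entire gene, mutant and wild-type transcript alike, and so leave the genotype labels unchecked. The other 6 genes of the kinase module, Med13, Med12, Med12l, Cdk8, Cdk19 and Ccnc, all overlapped between the groups as well. In the Mediator core, with 26 genes tested, 11 had a positive and 15 a negative fold change, and 0 passed the test.

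No gene passed the test. With edgeR's quasi-likelihood test, 0 of 18844 genes (0%) had an adjusted p under 0.05, and 294 (1.56%) had an unadjusted p under 0.05, of which 179 (0.95%) were higher and 115 (0.61%) lower in Het. Limma-voom called 0 genes, and DESeq2 called the mitochondrial tRNA gene mt-Tq. Without Het 1, edgeR called 0 of 19254 genes (0%), and 278 (1.44%) had an unadjusted p under 0.05, 115 (0.597%) higher and 163 (0.847%) lower. The split between directions also moved with Het 1 kept: it was 146 higher and 143 lower with library totals in place of TMM, 122 and 147 with limma-voom, 99 and 102 with the Het and WT libraries alone, and 76 and 97 with embryo sex as a factor. On simulated counts, the fit with all libraries called 10% of genes set to a 1.5-fold difference between Het and WT. The share was 40% at 2-fold, 74% at 4-fold and 92% at 8-fold. The simulated counts were drawn independently around the same mean in all libraries, apart from 200 genes changed in Het. No simulated library stood apart as Het 1 does, so the shares need not hold for the real libraries. In that setting most differences of 1.5-fold and of 2-fold went uncalled.

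Het 1 held most of the extreme values. In 495 genes (2.63%) it lay at least 2-fold above the highest of the other 5 libraries, and in 140 (0.743%) at least 2-fold below the lowest, on log2 of CPM + 0.5. The other 5 libraries stood above the rest in 0 to 18 genes each. Below the rest stood Het 2 in 99 genes, and WT 1, WT 2, WT 3 and Het 3 in 14, 15, 18 and 6. Among the 294 genes at an unadjusted p under 0.05, Het 1 was the highest Het library in 139 of the 179 higher genes and the lowest in 59 of the 115 lower genes. Over all tested genes it was the highest Het library in 5366 of 9511 genes with a fold change above 0 and the lowest in 5334 of 9333 below 0, so the lower genes show no excess for Het 1. With Het 1 left out, 81 of the 294 remained under that p and 13 turned in sign. Leaving out Het 2 or Het 3 instead left 207 and 182 of them, and leaving out WT 1, WT 2 or WT 3 left 119, 134 and 119. Without a library other than Het 1, none turned in sign. The number of genes under that p moved more without Het 2 or Het 3. It was 1115 (762 higher and 353 lower) without Het 2 and 474 (307 higher and 167 lower) without Het 3, against 278 without Het 1. Over all 18844 genes, the sign of the fold change turned in 31.4% without Het 1, against 11.8% to 17.7% without any of the other 5.

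**Figure D1:**
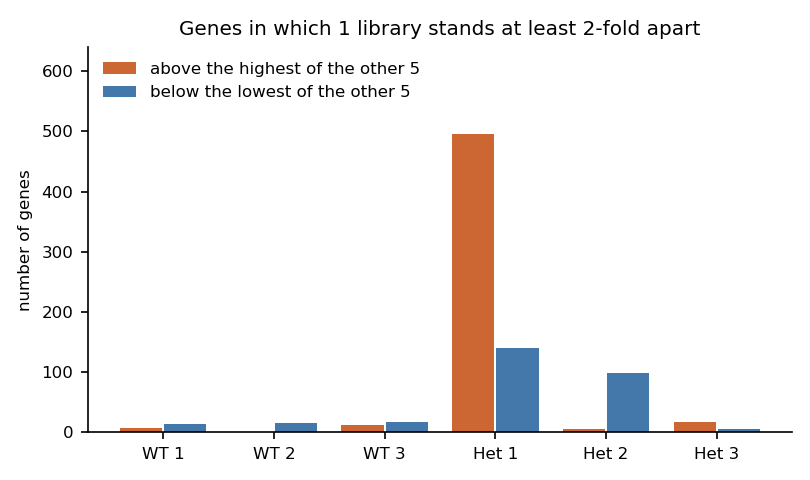
The number of tested genes (y axis) in which each library (x axis) lay at least 2-fold above the highest or below the lowest of the other 5, on log2 of CPM + 0.5. Het 1 stood above the rest in 495 genes and below in 140, and Het 2 stood below in 99.

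The genes in which Het 1 stood farthest above the others included transcription factors known from the diencephalon, the midbrain and sensory or habenular neurons. Shox2, a homeobox gene, had 140 CPM in Het 1, against 0.112, 0.378 and 0 CPM in WT and 0 and 0.160 CPM in the remaining Het libraries. Pou4f1, a POU factor of habenular and sensory neurons, had 136 CPM in Het 1 and 0.382 to 0.762 CPM in the other 5. Pax7, a paired box factor of the dorsal midbrain, had 75.8 CPM in Het 1 and 0.139 to 0.373 CPM elsewhere. In each of these 3 genes Het 2 and Het 3 lay at or near the level of WT. Tal2, a midbrain factor of GABAergic neurons, had 119 CPM in Het 1 and 0.532 to 0.963 CPM in the others, and Gata3, which acts with it, had 83.6 CPM against 0.246 to 0.902 CPM. Tfap2b, an AP-2 factor, had 695 CPM in Het 1 and 3.52 to 13.3 CPM in the other 5. Mab21l2, Asic4, Irx1 and Sox14 completed the 10 genes with the widest gap at a mean of 5 CPM or more, with 47.6 to 145 CPM in Het 1.

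Among the genes farthest below the others in Het 1 were Tbr1 and Neurod6, which mark cortical neurons. Tbr1, a T-box factor of early-born cortical neurons, had 374, 367 and 372 CPM in WT, 52.8 CPM in Het 1, and 339 and 347 CPM in the remaining Het libraries. Neurod6, a marker of cortical excitatory neurons, had 527, 551 and 516 CPM in WT and 96.8, 604 and 417 CPM in Het 1, Het 2 and Het 3. Tbr1 was lower in all 3 Het libraries than in any WT library, but by a small margin outside Het 1. In Neurod6 the groups overlapped. The gene with the lowest relative value among those with a mean of at least 5 CPM, B3gnt2, had 0.160 CPM in Het 1 and 6.23 to 7.79 CPM in the others. Gm28048, which overlaps it on the same strand, had 7.49 CPM in Het 1 and 0 to 1.10 CPM in the others. The sum of both was 7.65 CPM in Het 1 and 6.23 to 8.89 CPM in the other 5, so the low value of B3gnt2 cannot be told apart from how reads of the overlapping genes were assigned.

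**Figure D2:**
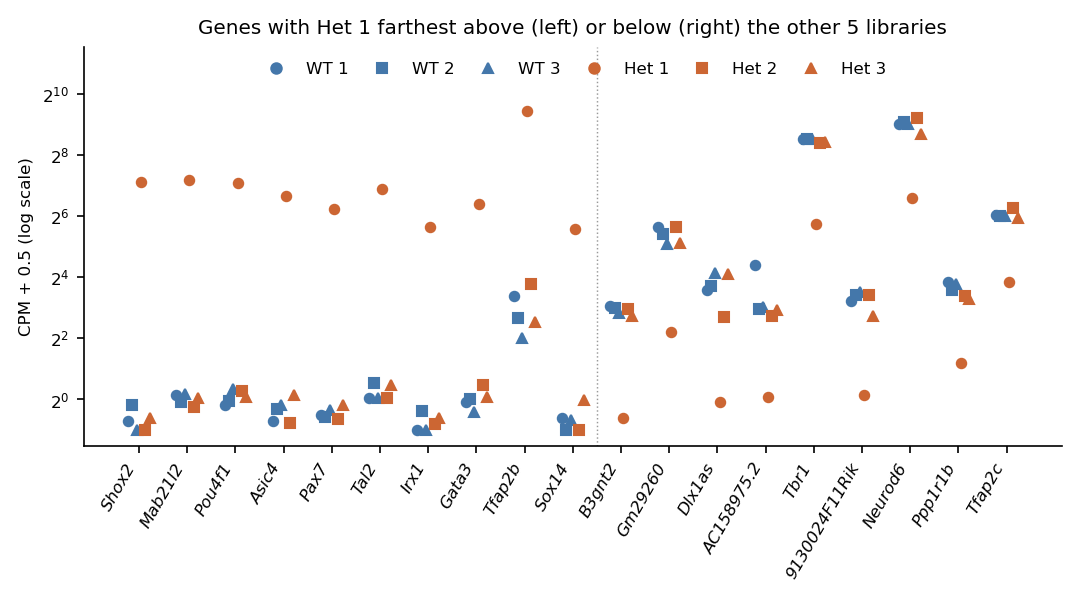
CPM + 0.5 on a log scale (y axis) in each of the 6 libraries for the 10 genes in which Het 1 lay farthest above and 9 of the 10 in which it lay farthest below the other 5 (x axis). Circles, squares and triangles are replicates 1, 2 and 3. In the left 10 genes the 5 other libraries cluster far below Het 1, and Tbr1 shows 52.8 CPM in Het 1 against 339 to 374 CPM in the others.

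Lists of marker genes also set Het 1 apart. The lists are described by counts and medians, since they were chosen with results of these data known, and over all 18844 genes the median log2 fold change was 0.0021, with 50.5% of genes above 0. Of 16 tested thalamus and caudal diencephalon genes, 15 had a positive fold change and 15 were highest in Het 1. Their median was 1.74, and 0.06 without Het 1, and their score lay 1.48 above WT within letter D and 0.226 above within letter F. Tcf7l2, a Wnt effector of thalamic neurons, had 16.6, 15.8 and 14.3 CPM in WT, 657 CPM in Het 1, and only 17.2 and 22.4 CPM in the remaining Het libraries. Its groups did not overlap, yet its log2 fold change went from 3.90 (SE 1.35) to 0.34 (SE 0.52) without Het 1. Lhx9, a LIM factor of the caudal thalamus, had 335 CPM in Het 1 and 47.7 to 57.5 CPM in the others. Gbx2, which defines thalamic neurons, was at 9.25 CPM in Het 1 and at 0 to 0.346 CPM in the others.

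Midbrain and hindbrain genes followed Het 1 with a larger median. Of 11 tested members, 10 were positive, 9 were highest in Het 1, and the median of 3.37 became 0.05 without that library. The summed level of the list was 5.59 to 7.59 CPM in WT, 429 CPM in Het 1, and 4.79 and 7.96 CPM in the remaining Het libraries. Its score lay 1.95 above WT within letter D, which holds Het 1, and 0.283 above within letter F. Further members had too few libraries with counts to be tested. En2, an engrailed factor of the midbrain and hindbrain boundary, had 986 counts in Het 1 and 0 to 2 counts in each of the other 5. Its paralog En1 had 325 counts in Het 1 and 0 in each of the others, and Foxa2, a floor plate factor, 130 counts against 0 to 5. The hindbrain genes Hoxa2 and Hoxb4 had 0 counts in all 6 libraries, and Hoxb2 had 3 counts in Het 1 and 0 in the others. Among the 36491 genes that were not tested, 24 had at least 1 CPM in Het 1 and under 0.1 CPM in all other 5 libraries, and 0 had this pattern in any other library. The labels name cortex for Het 1 as for the others, and whether the tissue taken for it differed was not tested. The Het means include this library.

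Cortical identity, cell cycle and neuronal lists followed Het 1 as well. The medians of the cell cycle and neuronal lists turned in sign without it, and that of the cortical identity list came near 0. Of 12 cortical identity genes, 11 had a negative fold change and 11 were lowest in Het 1, with a median of -0.38 that became -0.01 without it, when 7 of the 12 were negative. All 21 G2 and M phase genes and 18 of 20 S phase genes were negative, and each gene of both lists was lowest in Het 1. Mki67, a protein of dividing nuclei, had 742, 758 and 500 CPM in WT, 359 CPM in Het 1, and 746 and 813 CPM in the other Het libraries. Without Het 1, 20 of the 21 G2 and M phase genes and 19 of the 20 S phase genes were positive, and the medians went from -0.12 to 0.13 and from -0.12 to 0.12. Within letter D, which holds Het 1, the Het score of the G2 and M phase list (mean log2 CPM of its members) lay 0.387 below WT, and within letter F, with 1 library a side, 0.218 above.

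Neuronal genes had the opposite sign. Of 20 pan-neuronal genes, 19 were positive (median 0.17), and without Het 1, 18 were negative (median -0.20). The Het score of the list lay 0.303 above WT within letter D and 0.140 below within letter F. Tubb3, a tubulin of neurons, had 850, 796 and 972 CPM in WT, 1459 CPM in Het 1, and 698 and 880 CPM in the other Het libraries. Of 22 synapse genes, 13 were positive (median 0.08), and without Het 1, 21 were negative (median -0.24). Sv2a, a synaptic vesicle glycoprotein gene, had 66.7, 64.3 and 81.0 CPM in WT, 146 CPM in Het 1, and 47.5 and 64.0 CPM in the other Het libraries. In neither setting did a member pass the test. In bulk RNA, fewer cells of a type and less RNA per cell cannot be told apart.

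**Figure D3:**
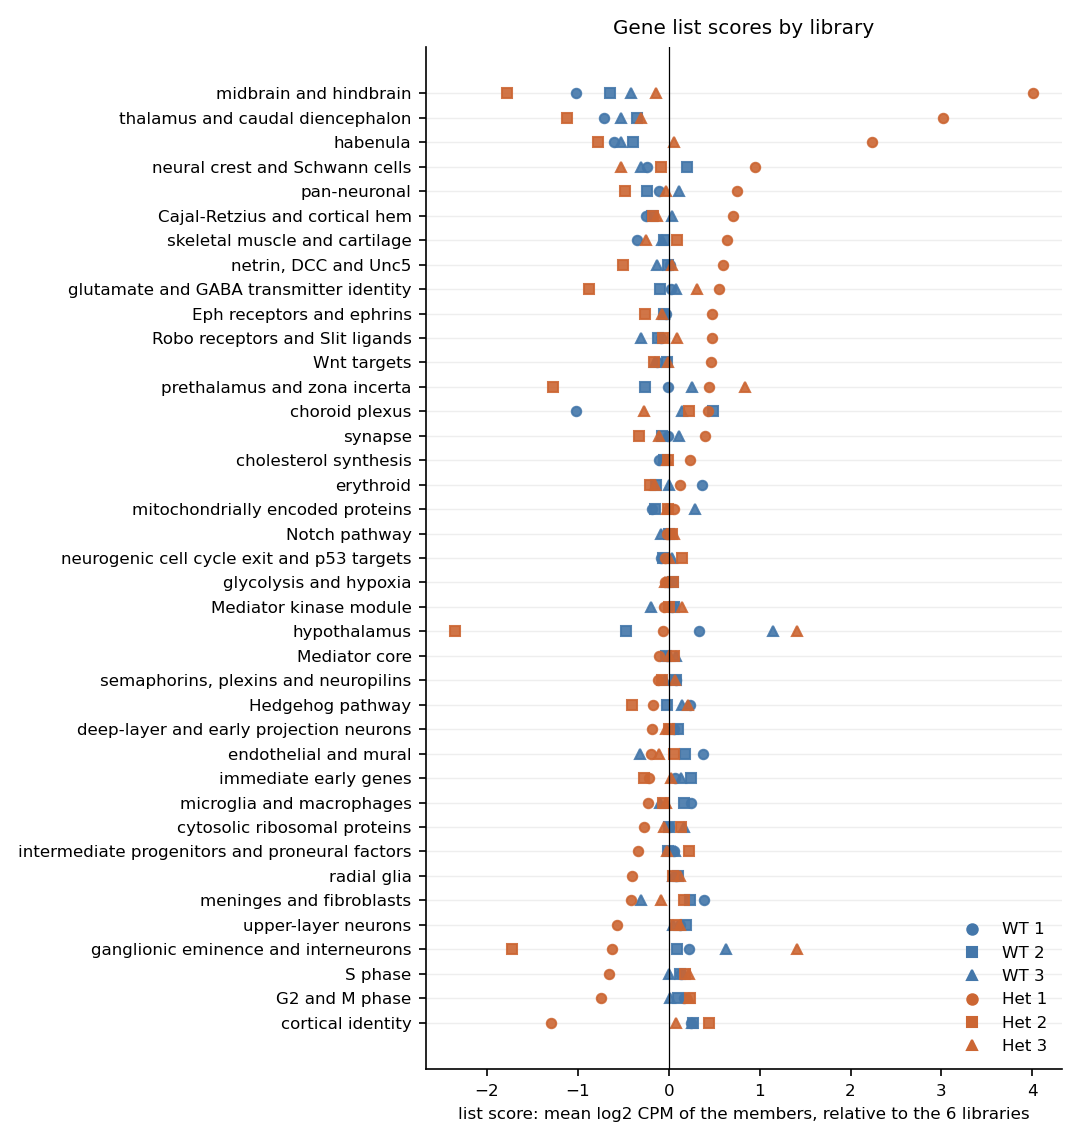
The score of each gene list (y axis) in the 6 libraries (x axis), as the mean log2 CPM of the tested members relative to the mean of the 6 libraries, ordered by Het 1. Het 1 lies at 4.01 on the midbrain and hindbrain list and at -1.29 on the cortical identity list, and Het 2 and Het 3 lie at opposite ends of the ganglionic eminence (-1.73 and 1.41) and hypothalamus (-2.35 and 1.41) lists.

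Het 2 and Het 3 differed from each other most in genes of the ventral forebrain. Dlx2, a homeobox gene of the ganglionic eminences that precedes interneuron fate, had 25.5, 25.5 and 30.1 CPM in WT, with Het 2 low at 4.70 CPM, Het 3 high at 57.5 CPM and Het 1 at 2.19 CPM. Isl1, a LIM factor of striatal precursors, had 3.64, 3.19 and 6.74 CPM in WT, with Het 2 at 0.185 CPM, Het 3 at 27.1 CPM and Het 1 at 1.575 CPM. The ganglionic eminence list of 18 genes had a median log2 fold change of 0.34, with 10 positive and 8 negative members. Its summed level was 446 to 563 CPM in WT and 613, 243 and 825 CPM in Het 1, Het 2 and Het 3. The WT values thus lay within the span of the Het libraries. The list score instead placed Het 1 below WT, at -0.629 against 0.09 to 0.632. In Het 1, 6 members were the highest of the 6 libraries and 7 the lowest. Without Het 3 the median was -1.12, and without Het 1 it was 0.14. Within letter D the Het score of this list lay 1.34 below WT, and within letter F 0.777 above.

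In 976 of 18844 genes (5.18%) all 3 Het libraries lay beyond the WT range on the same side. Of these, 463 (2.46%) were higher and 513 (2.72%) lower in Het. With a ratio of means of at least 1.5 as well, 137 genes were higher in Het (0.727%) and 183 lower (0.971%), 320 in all (1.7%). Robo3 had the smallest p of genes with a mean of at least 5 CPM. It encodes a Slit receptor family member that lets commissural axons cross the midline. Robo3 (ENSMUSG00000032128, GRCm38 chromosome 9, 37415669 to 37433246) had 11.8, 7.0 and 10.8 CPM in WT and 58.8, 19.2 and 23.9 CPM in Het. All 3 Het libraries lay above all 3 WT libraries, Het 1 by far the most. The log2 fold change was 1.78 (SE 0.41, edgeR adjusted p = 0.999), and 1.12 (SE 0.23) without Het 1. Within letter D the difference in log2(CPM + 0.5) was 1.83, and within letter F, without Het 1, it was 1.11.

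The other genes of Robo and Slit signalling, in which Slit ligands repel axons through Robo receptors, did not separate the groups. Robo1, the main receptor of the family in cortical axons, had 162, 155 and 105 CPM in WT and 409, 110 and 154 CPM in Het, with Het 1 alone above WT. Robo2 had 154 to 176 CPM in WT and 222, 149 and 194 CPM in Het. The ligand Slit2 had 63.2, 81.3 and 66.5 CPM in WT and 89.9, 78.8 and 82.7 CPM in Het, where Het 2 lay below WT 2. Of the 7 family genes 5 were positive and 2 negative, with a median of 0.25 and of 0.05 without Het 1, and 0 passed the test.

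Hrk was the gene of smallest p among those lower in Het at a mean of at least 5 CPM. It encodes a BH3-only protein that promotes apoptosis of neurons. Hrk (ENSMUSG00000046607, GRCm38 chromosome 5, 118164648 to 118189478) had 9.75, 11.8 and 9.70 CPM in WT and 6.53, 6.22 and 6.50 CPM in Het. The Het libraries were close together and all lay below WT, and Het 1 did not stand out. Its log2 fold change was -0.70 (SE 0.17, edgeR adjusted p = 0.999), -0.71 (SE 0.19) without Het 1, and between -0.74 and -0.60 over all 20 alternatives tried. The differences within the letters were -0.71 for D and -0.54 for F. Hrk lies 0.371 Mb from Med13l.

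The promoters of Robo3 and Hrk, the leading genes of each direction, are shown for the 250 bases before the RefSeq start (GRCm38.p6), with the homeodomain core TAATTA in capitals. That palindrome was searched on both strands, overlaps no other motif searched, and occurs once in each of these windows. It was in 4.84% of all 32851 promoters, and in 0 of 14 cholesterol synthesis, 0 of 17 S phase and 0 of 18 G2 and M phase promoters. Robo3 and Hrk were chosen by p, and other leading genes outside those lists are not reported for it. Enrichment was not tested. It begins 101 bases before the start in Robo3 (chr9:37433176-37433425, minus strand) and 62 bases before it in Hrk (chr5:118169514-118169763, plus strand).
Robo3 promoter: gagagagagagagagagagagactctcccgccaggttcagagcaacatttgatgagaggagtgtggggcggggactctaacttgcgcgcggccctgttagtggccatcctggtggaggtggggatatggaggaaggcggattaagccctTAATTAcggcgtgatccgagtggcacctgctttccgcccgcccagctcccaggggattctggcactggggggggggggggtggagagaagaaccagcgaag
Hrk promoter: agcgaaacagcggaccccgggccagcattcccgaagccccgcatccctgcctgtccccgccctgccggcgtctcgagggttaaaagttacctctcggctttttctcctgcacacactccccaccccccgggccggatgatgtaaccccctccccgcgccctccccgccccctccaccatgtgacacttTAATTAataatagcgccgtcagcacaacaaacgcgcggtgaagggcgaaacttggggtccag
A match describes these letters only, and factor binding was not measured.

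Slc39a7 and Hsd17b7 also separated the groups without help from Het 1. With no minimum ratio of means, 2.46% of all genes did not overlap with Het higher. Slc39a7, a zinc transporter of the endoplasmic reticulum (ENSMUSG00000024327, chromosome 17, 34028269 to 34031682), had 39.0, 42.7 and 42.8 CPM in WT and 60.2, 60.6 and 50.3 CPM in Het. Every Het library lay above WT, and the log2 fold change was 0.46 (SE 0.11, edgeR adjusted p = 0.999), or 0.41 (SE 0.12) without Het 1. Gm20427 overlaps Slc39a7 on the same strand and had 89.0, 81.2 and 95.7 CPM in WT and 91.3, 65.5 and 72.3 CPM in Het. The sum of both genes was 128, 124 and 138 CPM in WT and 152, 126 and 122 CPM in Het, and these sums overlapped. A difference of Slc39a7 alone can therefore not be told apart from a different split of reads over the locus.

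Hsd17b7, the reductase of the late steps of cholesterol synthesis (ENSMUSG00000026675, chromosome 1, 169949535 to 169969241), had 19.5, 20.1 and 21.1 CPM in WT and 29.4, 27.5 and 28.0 CPM in Het. The 3 Het libraries lay close together and well above WT. Its log2 fold change was 0.48 (SE 0.12, edgeR adjusted p = 0.999), 0.45 (SE 0.13) without Het 1, and 0.51 and 0.40 within the letters D and F. No other tested gene overlaps it.

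Other cholesterol synthesis genes differed less, and mostly in Het 1. Of 19 members, 18 had a positive fold change (median 0.15), and 15 were highest in Het 1. Without that library 13 were positive and 6 negative (median 0.07). Hmgcs1, which makes the precursor of the pathway, had 379, 418 and 363 CPM in WT and 615, 398 and 436 CPM in Het. Het 2 lay within the WT range. Cyp51, the lanosterol demethylase, had 124, 124 and 118 CPM in WT and 178, 126 and 131 CPM in Het, and Ebp, the sterol isomerase, 6.89 to 6.94 CPM in WT and 9.16, 7.13 and 8.28 CPM in Het. Hsd17b7, Cyp51 and Ebp were the 3 members whose groups did not overlap with Het higher, 3 of 19, against 2.46% of all genes. Other lists had larger shares, so this was not particular to cholesterol synthesis. With Het higher these were 2 of 9 habenula genes and 2 of 5 skeletal muscle and cartilage genes. With Het lower (2.72% of all genes) they were 3 of 13 microglial and macrophage genes and 2 of 8 neural crest and Schwann cell genes. The list score lay 0.197 above WT within letter D and 0.0396 within letter F.

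The promoters of Hsd17b7 and Hmgcs1 are shown as those of a member high in all 3 Het libraries and of a member whose highest value was in Het 1. Capitals mark CCAAT, the box bound by NF-Y, or its reverse complement ATTGG, and the sterol regulatory element TCACNCCAC, which was found in Hmgcs1 only, both searched on both strands.
Hsd17b7 promoter (chr1:169969206-169969455, minus strand): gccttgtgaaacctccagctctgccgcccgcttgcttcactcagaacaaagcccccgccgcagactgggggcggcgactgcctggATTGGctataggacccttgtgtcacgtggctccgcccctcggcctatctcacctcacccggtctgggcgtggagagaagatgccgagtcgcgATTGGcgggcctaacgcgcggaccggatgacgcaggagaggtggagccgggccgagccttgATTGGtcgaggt
Hmgcs1 promoter (chr13:119690101-119690350, plus strand): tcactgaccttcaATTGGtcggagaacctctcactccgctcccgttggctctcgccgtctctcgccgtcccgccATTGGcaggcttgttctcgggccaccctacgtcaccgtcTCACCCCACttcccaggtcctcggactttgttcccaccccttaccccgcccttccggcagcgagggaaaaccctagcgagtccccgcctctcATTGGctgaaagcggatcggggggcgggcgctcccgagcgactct
Each window holds 3 CCAAT boxes. RefSeq gave promoters for 14 of the 19 members, and all 14 held CCAAT, against 33.8% of all promoters of that length. The same box was in 16 of 18 G2 and M phase promoters. TCACNCCAC was in 1 of the 14, against 1.05% of all promoters.

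A further 4 genes of smallest p had small differences in every Het library. Sbno1, a helicase-family regulator homologous to fly strawberry notch, had 162, 166 and 174 CPM in WT and 202, 187 and 216 CPM in Het. Rnf2, the catalytic ubiquitin ligase of Polycomb repressive complex 1, had 121, 129 and 112 CPM in WT and 156, 143 and 139 CPM in Het. S100pbp had 57.7 to 65.6 CPM in WT and 72.2 to 78.5 CPM in Het. None of these 3 overlapped between the groups, as was so with Het higher in 2.46% of all genes at no minimum ratio. They were picked by p, so their separation is no further support. Their log2 fold changes of 0.27, 0.28 and 0.28 were 0.27, 0.22 and 0.24 without Het 1. Zfp870, a zinc finger gene, had 13.48 to 17.1 CPM in WT and 19.1 to 20.4 CPM in Het. For each of these 4 genes the edgeR adjusted p was 0.999. Gata3 was also among the 10 genes of smallest p, and its log2 fold change of 6.12 (SE 1.82) was 0.85 (SE 0.44) without Het 1.

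**Figure D4:**
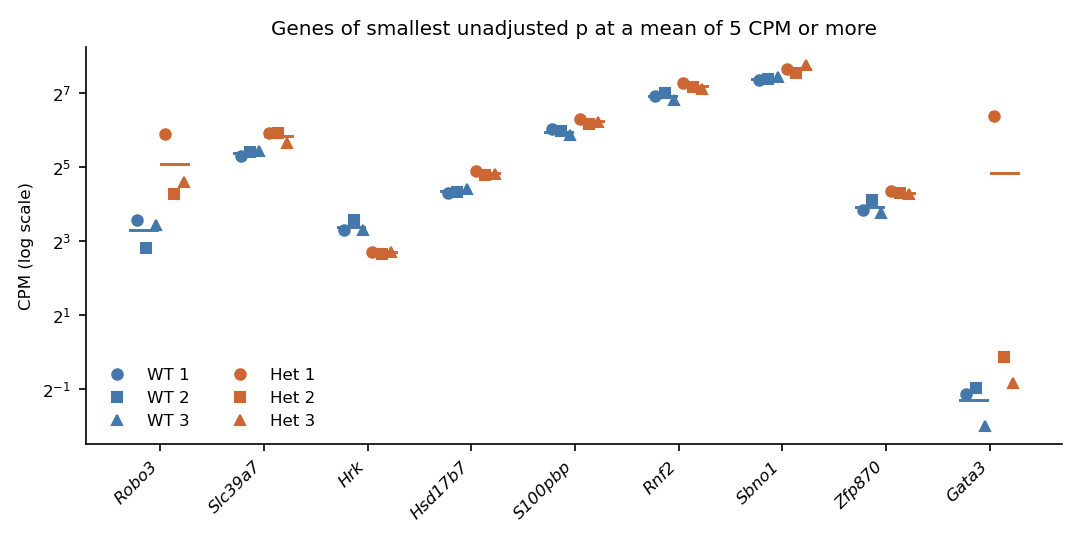
CPM on a log scale (y axis) in each library for 9 of the 10 genes of smallest unadjusted p at a mean of at least 5 CPM (x axis). Points are single libraries and bars group means. Hrk and Hsd17b7 separate the groups with all 3 Het libraries together, and Gata3 differs through Het 1 alone, at 83.6 CPM against 0.902 and 0.559 CPM in Het 2 and Het 3.

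Several of the smallest p-values belonged to genes near the limit of detection. Trp63, the p53 relative of epithelia, had 0.584, 0.585 and 0.426 CPM in WT and 0.137, 0.162 and 0.186 CPM in Het. H60b, a ligand of a natural killer cell receptor, had 0.112 to 0.157 CPM in WT and 1.32, 0.440 and 0.426 CPM in Het. The lincRNA Gm9873 and Tspear were likewise higher in every Het library, at under 1 CPM throughout. The tRNA gene mt-Tq (mitochondrial genome, 3772 to 3842) had 48, 67 and 76 counts in WT and 0 counts in each Het library. Against a floor of 3 counts per library, its level in Het was at least 18.6-fold lower than the WT mean of 1.35 CPM, and DESeq2 gave an adjusted p = 0.0435 where edgeR gave 0.999. In KO the gene had 1.16, 0 and 1.29 CPM, so a library at 0 was not particular to the Het label. Its neighbour mt-Ti, which overlaps it by a few bases on the opposite strand, had 0.854 to 1.39 CPM in WT and 0.810 to 1.51 CPM in Het.

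Setting Het 1 aside brought other genes forward, none of them called. Mms22l, a factor of replication fork repair, had 50.04, 48.9 and 47.8 CPM in WT, 66.0 and 61.1 CPM in Het 2 and Het 3, but 31.7 CPM in Het 1. Its log2 fold change was 0.38 (SE 0.08, edgeR adjusted p = 1) without Het 1 and 0.11 (SE 0.23) with it. Cyp26b1, which degrades retinoic acid, had 8.89, 11.7 and 12.2 CPM in WT, 2.13 and 4.82 CPM in Het 2 and Het 3, and 17.0 CPM in Het 1. For both genes Het 1 lay on the far side of WT from the other Het libraries. Mef2c, a factor of maturing cortical neurons, had 81.9, 81.3 and 75.0 CPM in WT and 16.9, 55.2 and 63.0 CPM in Het 1, Het 2 and Het 3. All 3 Het libraries lay below WT here, and the log2 fold change was -0.82 (SE 0.38) with Het 1 and -0.43 (SE 0.10) without it.

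**Figure D5:**
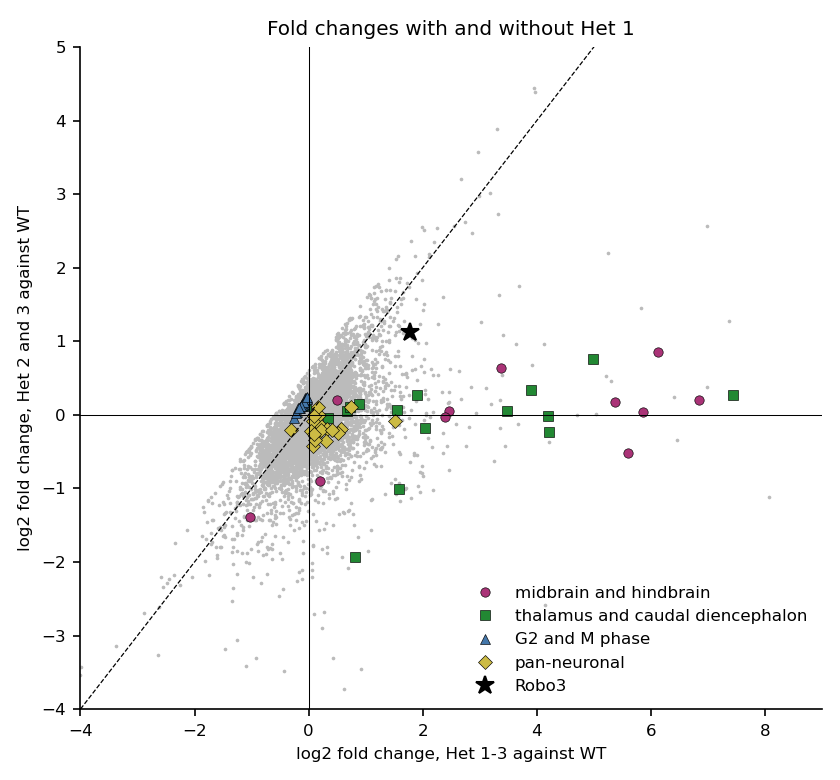
The log2 fold change of each gene tested in both fits, with all 3 Het libraries (x axis) and with Het 2 and Het 3 only (y axis), 37 genes lying outside the axes. Midbrain and thalamus genes lie far to the right near 0 on the y axis, G2 and M phase genes to the upper left of 0, pan-neuronal genes to its lower right, and Robo3 in the upper right at 1.78 and 1.12.

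Genes of vessels, macrophages and meninges had mostly negative fold changes of small size. All 16 endothelial and mural genes had a negative fold change (median -0.18), as had all 13 microglial and macrophage genes (median -0.18) and 15 of 17 meningeal and fibroblast genes (median -0.24), and 0 passed the test. Without Het 1 the medians were -0.11, -0.08 and -0.09. Pecam1, an adhesion molecule of vessels, had 51.5, 43.2 and 37.4 CPM in WT and 31.8, 41.3 and 44.6 CPM in Het. The WT libraries differed among themselves, with summed endothelial levels of 707, 610 and 429 CPM, and the Het sums of 460, 557 and 502 CPM lay within that range. Within letter D the Het score lay 0.344 below WT, and within letter F 0.203 above. Meningeal scores also changed sign between the letters, at -0.431 and 0.227. Radial glia, choroid plexus, erythroid and other lists are shown in the plot of list scores. Ribosomal protein genes had a negative fold change in 39 of 41 cases (median -0.12), with 38 lowest in Het 1 and a median of -0.03 without it.

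Genes close to Med13l were also described on their own. Of 290 tested genes within 10 Mb, 144 were positive and 146 negative, with a median log2 fold change of -0.0029. At an unadjusted p under 0.05 there were 4 higher and 4 lower, which is 2.76% against 1.56% of all genes, and the groups did not overlap in 6.21% against 5.18%. Besides Hrk and Sbno1, at 0.371 and 5.6 Mb, the smallest p belonged to Oas1c, Gm42878 and Gm42655. Oas1c, of the oligoadenylate synthetase family, lies at 2.04 Mb and had 0.906 to 0.966 CPM in WT and 0.365, 0.324 and 0.453 CPM in Het. Gm42878, at 2.75 Mb, had 1.5, 0.585 and 0.358 CPM in WT and 2.35, 14.7 and 20.9 CPM in Het. It overlaps Adam1a and Mapkapk5 on the same strand. The sum with Adam1a was 48.6, 56.4 and 59.0 CPM in WT and 65.8, 43.6 and 60.9 CPM in Het, so that the groups overlapped. With Mapkapk5 the sum was 22.9, 12.9 and 16.9 CPM in WT and 19.6, 38.2 and 34.8 CPM in Het. There Het 2 and Het 3 lay above WT, and Het 1 within its range.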

How the data were processed

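The deposited table holds raw read counts for 55335 Ensembl mouse genes in 9 bulk libraries. Tools in the submitters' processing notes are STAR 25.2b, StringTie 2.2.1 and FastQC 0.11.9, beside the single-cell tools and the build mm10, without a statement of which made the counts. Strand, annotation release and treatment of multi-mapping reads are not given in the sources used here, so counts of overlapping genes, antisense genes and near-identical copies are uncertain.

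Symbols and positions come from GENCODE M21 on GRCm38 (55154 of 55335 IDs), and promoters from RefSeq. All 9 libraries went into edgeR's robust quasi-likelihood F test (version 4.0.16, R 4.3.3), with TMM factors and the filterByExpr filter by genotype, and no covariate. P-values were adjusted by Benjamini-Hochberg over all tested genes. The 18844 genes tested held 99.95% of all counts. The fitted coefficient of biological variation was 28.2%, or 23.6% without Het 1. Standard errors come from the F statistic. CPM values use TMM-scaled library totals, and no level is compared between genes. The fit was tested on simulated counts with 200 changed genes. DESeq2 1.42.0, limma 3.58.1 voom, other size factors, filters and covariates, and leaving out each library were alternatives. Library pairs within a group differed by far more than sampling noise (mean chi-square per gene at least 22.8).

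The comparison, the gene lists and the rule for named genes were chosen with earlier results of these data known. The rule named the genes of smallest p with and without Het 1 (at any level, and at a mean of at least 5 CPM), the 10 genes farthest above and below in Het 1, the kinase module, the Robo and Slit genes, the members of each list with the highest WT level, and the 5 of smallest p near Med13l. Emx1, Sv2a, Isl1, En1, En2, Foxa2, the Hox genes, Ebp, the genes overlapping named ones, and those of the closing section were chosen after their values were seen. Some genes that the rule named are not reported here.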

Additional observations from a re-analysis of the deposited data

How the results depend on the processing

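The count of called genes was 0 in the edgeR fits with other size factors, filters and covariates and in each fit without 1 of the 9 libraries, and DESeq2 called 1 gene. At an unadjusted p under 0.05 the count of 294 was 173 with embryo sex as a factor, 473 with no filter and 186 with a stricter filter. It ranged from 210 (without WT 1) to 1115 (without Het 2) over the fits without 1 library, with 474 without Het 3. The cause of these shifts was not tested. Replicate numbers were shared between the genotypes, but same-numbered deviations had correlations of 0.0801, 0.196 and 0.0824, not all over 0.1, so the numbers were not taken as pairs. With the replicate block 0 genes were called and 217 had an unadjusted p under 0.05. Each WT and Het library correlated best with its own number, a hint from the data and not from a stated pairing. WT 3 and Het 3 also share the letter F, WT 1 and Het 1 were both female, and WT 2 and Het 2 both male. Numbers 1 and 2 both have the letter D, and WT 3 was male where Het 3 was female. Which of number, letter or sex the correlations follow was not tested.

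Without Het 1, leaving out a further library gave 0 to 2 calls: Xkr6 when Het 2 was left out too, and Rab43 and E130102H24Rik when Het 3 was. Each of those tests rests on a lone Het library, assumed to vary like the other groups. Non-overlapping genes numbered 513 at a smaller minimum ratio and 976 with no minimum. Het 1 stood above the rest in 264 genes of at least 5 CPM and in 100 at 4-fold, and below in 12 at 4-fold. Of 472 alternatives for the 24 fold changes printed, 2 turned in sign: Mms22l gave -0.077 without Het 2 and -0.000589 without Het 3, within a range up to 0.38 without Het 1. Only mt-Tq passed the threshold in any of them, with DESeq2. Of 780 alternatives for 39 list medians, 17 moved by more than the spread between libraries, 6 of them without Het 1. That spread is the pooled standard deviation of the list score within WT and within Het, and it includes Het 1. It is wide where Het 1 stands apart, so the count cannot show that such medians are steady. The cortical identity median went from -0.38 to -0.01 without Het 1 and was not counted, against a spread of 0.65.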

Other observations

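Single libraries other than Het 1 also held genes that were nearly absent from them. Rab43, a small GTPase gene, had 0.463 CPM in Het 2 and 20.6 to 28.5 CPM in the other 5 libraries. Gm45140, which overlaps it on the same strand, had 28.2 CPM in Het 2 and 0.571 to 3.95 CPM in the others. The sum of both was 28.6 CPM in Het 2 and 22.0 to 29.1 CPM in the other 5. The lincRNA E130102H24Rik had 0 CPM in Het 2 and 3.30 to 4.96 CPM in the others. Xkr6 had 3.28 CPM in Het 3 and 16.3 to 21.8 CPM in the other 5, and no tested gene overlaps it. Pttg1, which encodes securin, had 43.0 CPM in Het 3 and 6.92 to 10.2 CPM in the others. In WT 2, Ahnak, a large scaffold protein gene, had 0.717 CPM against 37.9 to 70.9 CPM elsewhere. Slc18a2, the vesicular monoamine transporter gene, was lowest in Het 2 at 0.162 CPM and highest in Het 3 at 28.9 CPM, with 4.88 to 7.55 CPM in the other 4.

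Genes whose WT and Het libraries did not overlap included Fabp7, a fatty acid binding protein of radial glia. It had 240, 256 and 287 CPM in WT and 214, 227 and 222 CPM in Het. Hopx, a marker of radial glia, had 5.95, 7.36 and 7.55 CPM in WT and 3.97, 3.91 and 5.46 CPM in Het. They do not stand for the radial glia list, in which 12 of 14 genes had a negative fold change (median -0.10) with 12 lowest in Het 1, and 11 of 14 a positive one without Het 1 (median 0.06). Ptprc, the pan-leukocyte antigen gene, had 2.74, 1.57 and 1.75 CPM in WT and 1.35, 1.04 and 0.852 CPM in Het. Col2a1, a collagen gene, had 122, 123 and 117 CPM in WT and 176, 149 and 127 CPM in Het. Its difference was largest in Het 1, and Het 3 lay close to WT. In these 4 genes every Het library lay on the same side of every WT library, a pattern that 5.18% of all tested genes showed, and with edgeR's quasi-likelihood test the 4 were not called.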
